A study of Mus musculus with 6 samples.

Results

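The cytosolic ribosomal protein genes were followed through differentiation of C2C12 cells, an established mouse myoblast line that proliferates in serum-rich medium and fuses into myotubes once serum is lowered. The genes are those whose symbol in the platform annotation is Rpl, Rps or Rplp with a number and at most 1 of the letters a, l, x or y, plus Rpsa. A gene was counted where at least 1 probe set is annotated to it alone, which left 46 genes with 100 probe sets, of 18193 genes and 45037 probe sets tested. They comprise 24 proteins of the large subunit and 22 of the small subunit. A further 28 ribosomal protein symbols, among them Rpl3, Rpl5, Rpl10 and Rplp1, appear only on probe sets shared with pseudogenes or other genes. The 110 shared probe sets, which belong to these symbols and to some of the 46 genes, are described apart.

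Differentiated cells had spent 6 days in 2% horse serum, and proliferating cells were kept in 20% serum. Each group had 3 arrays. Both groups are the same untreated, unmodified line, so serum and differentiation cannot be told apart. The RNA of an array came from several plates, 3 grown together to a pool and 3 pools mixed, which narrows the spread relative to that of single cultures. Values are linear signals of the array software MAS 5.0, with the trimmed mean of each array scaled to 250, and changes are differences of log2(signal + 15), differentiated minus proliferating, which understates changes of dim probe sets. In these cultures fewer cells expressing a gene and less RNA per cell cannot be told apart.

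Ribosomal proteins assemble with ribosomal RNA in the nucleolus into a small subunit, which reads the mRNA, and a large subunit, which forms the peptide bond. Their mRNAs are among the most abundant of a cell, and most begin with a run of pyrimidines, the terminal oligopyrimidine or TOP motif, through which their translation follows growth signals. Most are needed in every cell, but a few have paralogs of restricted expression. Rpl3l, which takes the place of Rpl3 in adult skeletal and heart muscle, is the best known of these in muscle.

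The cultures bore out their labels. Myogenin (Myog), the transcription factor of early differentiation, was higher by 5.20 on the log2 scale (SE 0.10, adjusted p = 5.7e-12), and skeletal actin (Acta1) by 6.56 (SE 0.10, adjusted p = 1.6e-12). The proliferation marker Mki67 fell by 3.79 on the log2 scale (SE 0.15, adjusted p = 4.2e-09). Of 8 markers of endothelium, leukocytes, adipocytes, keratinocytes and hepatocytes, 2 in differentiated and 3 in proliferating cells were above the bacterial controls on all arrays of the group, and their summed signal was 430 to 533 in differentiated cells against 653 to 734 in proliferating cells. Keratin 14 (Krt14) was the marker that passed the test, with signals of 16.9, 13.3 and 37.7 in differentiated cells against 248, 248 and 194 in proliferating cells. Its part in the results below was not tested. The arrays carry 27 probe sets for bacterial transcripts, and the brightest of these, 51.9 to 87.0 by array, was read as the background limit.

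Ribosomal protein signals were lower in differentiated cells, by a small amount. The median change over the 46 genes was −0.32 on the log2 scale, against 0.06 over all genes, and 42 of 46 changes were negative. The 46 include Rpl3l, Rps4l and Rps16, at background on every array, whose signs carry no direction. At an adjusted p under 0.05 in limma, 15 of the 46 genes (32.6%) were lower in differentiated cells and none was higher, where 9.05% of all genes were called lower and 8.67% higher. At an unadjusted p under 0.05, 29 were lower and 0 higher, but the share of all genes at that threshold was not counted. The groups did not overlap, with every differentiated array below every proliferating one, in 29 genes (63.0%), against 15.5% of all genes. No gene had all differentiated arrays above all proliferating ones, against 18% of all genes.

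The size of this difference depended on the scaling of the arrays. After quantile normalization, which gives all arrays the same distribution of signals, the median was −0.13, against 0.01 over all genes, and 6 genes (13.0%) were called lower and none higher, where 8.78% and 8.76% of all genes were. After cyclic loess, which removes a shift that depends on brightness, the median was −0.11 and 5 genes (10.9%) were called lower and none higher, where 8.39% and 8.84% of all genes were. With the 75th percentiles of the arrays made equal, the median was −0.37 and 15 genes were called lower and none higher, where 10% and 7.66% of all genes were.

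**Figure D1:**
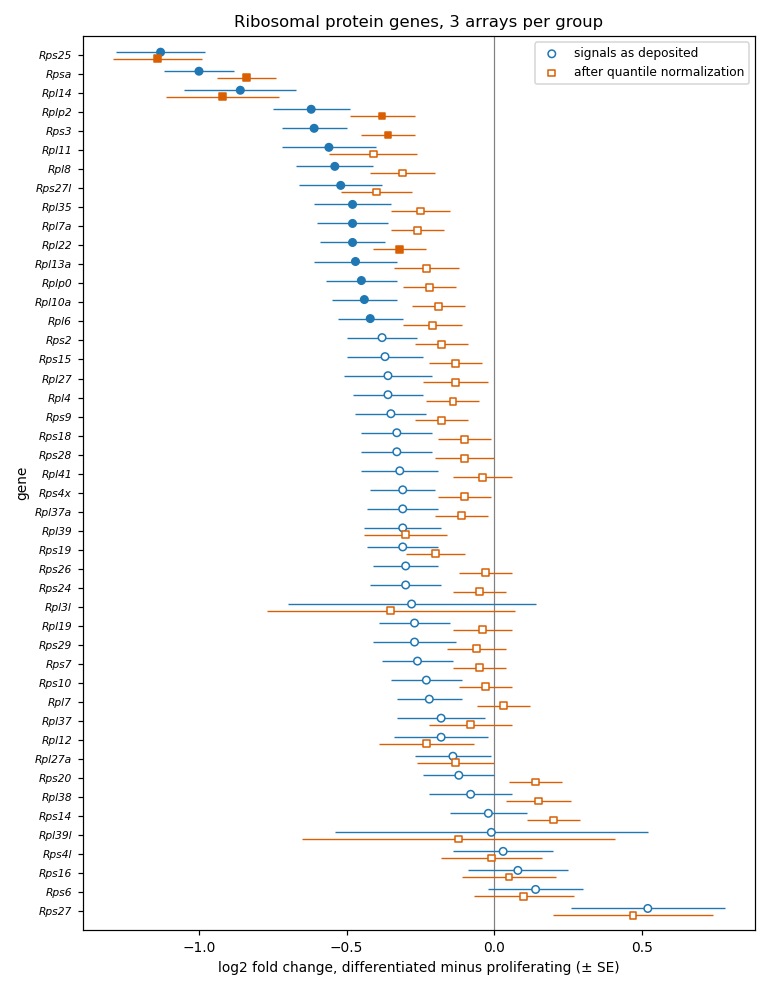
Change of each of the 46 ribosomal protein genes on the log2 scale (x axis, differentiated minus proliferating, bars are SE, 3 arrays per group), as deposited (circles) and after quantile normalization (squares); filled symbols have an adjusted p under 0.05. As deposited, 42 of 46 circles lie left of 0 and 15 are filled, and after quantile normalization 6 squares are filled.

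Most of these probe sets are at the top of the signal range. The brightest probe set of 35 genes was above the 95th percentile of all probe sets tested, and that of 31 genes had a mean signal above 10000. All 31 of these changes were negative, with a median of −0.35 and a range from −1.0 to −0.02, and 11 (35.5%) were called lower. Of all 229 probe sets with a mean signal above 10000, 52 were of these genes alone and 58 were shared ribosomal protein ones. In all 229 together, 33.6% were called lower, close to the 35.5% of the 31 genes, and 7.86% higher. The 119 others had a median change of −0.23, with 41 (34.5%) called lower and 18 (15.1%) higher, and 78 of them were negative. After quantile normalization the 119 had a median of 0.00, with 24 (20.2%) called lower and 32 (26.9%) higher. The 31 bright ribosomal protein genes then had a median of −0.13, with 4 (12.9%) called lower, against 14.4% of all 229. Among the 11 genes whose brightest own probe set had a mean signal under 1000, the median was −0.14. Of these, 2 (18.2%) were called lower, where 9.05% of all genes were.

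**Figure D2:**
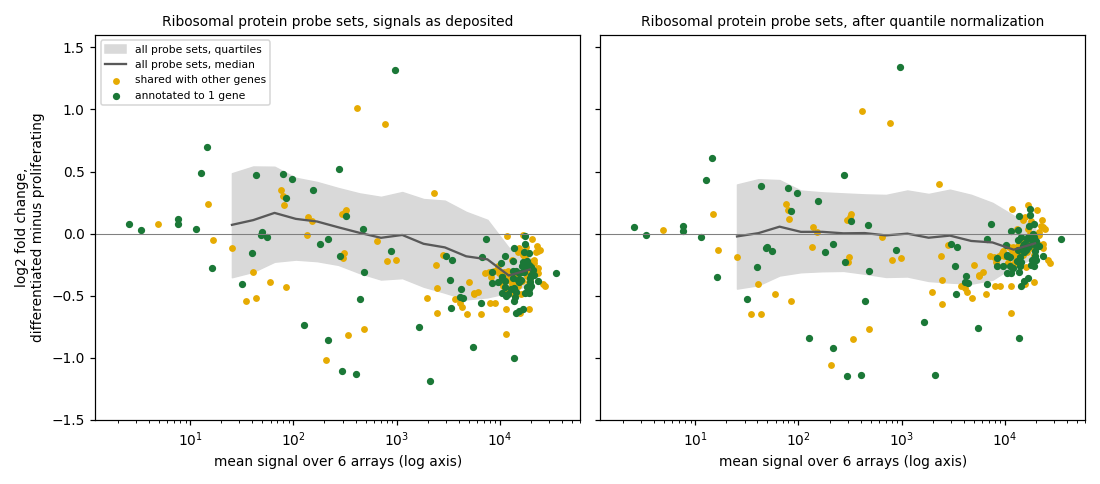
Change of ribosomal protein probe sets (y axis, log2 scale, differentiated minus proliferating) against mean signal over 6 arrays (x axis, log axis), as deposited (left) and after quantile normalization (right); green points are the 100 probe sets annotated to 1 gene, yellow points the 110 shared ones, the line and band the median and quartiles of all probe sets in bins of signal. Above 10000 the median over all probe sets, ribosomal protein ones included, lies at −0.32 as deposited and at −0.10 after quantile normalization. Among the dimmer points 1 of Rpl22 stands apart at 1.32.

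As a share of all signal on an array, the 100 probe sets gave 4.4%, 4.48% and 5.0% in differentiated cells and 5.28%, 5.97% and 5.68% in proliferating cells. Together with the shared probe sets they gave 9.67%, 9.88% and 10.9% in differentiated cells and 11.5%, 12.9% and 12.3% in proliferating cells. The groups did not overlap in either sum. Of the transcripts commonly used as a reference, Hprt was lower by 0.31 in differentiated cells as deposited (change −0.31, SE 0.09, adjusted p = 0.036), close to the ribosomal protein median of −0.32. After quantile normalization the change of Hprt was −0.26 (adjusted p = 0.068). Actb, the other reference transcript measured, had overlapping groups and a change of −0.47 (SE 0.21, adjusted p = 0.20), and −0.25 (adjusted p = 0.52) after quantile normalization.

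Rpsa, a small subunit protein that is also known as the laminin receptor precursor, had the clearest difference among the bright genes. Its signals were 8899, 8089 and 10552 in differentiated cells, against 17691, 18628 and 18618 in proliferating cells. Every differentiated array was far below every proliferating one. The change was −1.0 (SE 0.12, adjusted p = 8.1e-05), and it was −0.84 (adjusted p = 0.00012) after quantile normalization and −0.76 (adjusted p = 0.00032) after cyclic loess. A dim second probe set annotated to Rpsa was below the bacterial controls on all 6 arrays.

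Rps3, which lies at the mRNA entry of the small subunit, had signals of 12727, 13295 and 13657 in differentiated cells, against 19011, 21435 and 20235 in proliferating cells. Its change was −0.61 (SE 0.11, adjusted p = 0.0022), and −0.36 (adjusted p = 0.017) after quantile normalization. The gap between the groups was wider than the range of either group. A dim second probe set of Rps3, with means of 173 and 184 in differentiated and proliferating cells, had a change of −0.08 (adjusted p = 0.89).

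The stalk of the large subunit, which recruits the elongation factors, is built of Rplp0 at its base and of Rplp1 and Rplp2. Rplp2 had signals of 11472, 10705 and 14236 in differentiated cells, against 17660, 20499 and 17572 in proliferating cells, a change of −0.62 (SE 0.13, adjusted p = 0.0067). Rplp0 had 15582, 14820 and 17777 in differentiated cells, against 20620, 23568 and 21476 in proliferating cells, a change of −0.45 (SE 0.12, adjusted p = 0.028). For both the groups were apart, but differentiated replicate 3 was the highest of its group. Rplp2 also passed after quantile normalization, at −0.38 (adjusted p = 0.035), whereas Rplp0 was at −0.22 (adjusted p = 0.17). Rplp1 was measured by a probe set shared with Gm13777, with a change of −0.38 (adjusted p = 0.092).

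The bases around the start of transcription are shown for 3 genes called lower that have a pyrimidine run at the start (Rplp2, Rpl35 and Rpl14), for the 2 bright genes that passed under every scaling tried but have no such run within 10 bases of it (Rpsa and Rps3), and for Rpl3l. They are RefSeq sequences of GRCm38.p6, 10 bases before and 20 from the annotated start, 5′ to 3′ on the gene's strand. Capitals mark the longest run that opens with C and goes on with at least 4 bases that are each C or T.
Rplp2, chr7:141447641-141447670, plus strand: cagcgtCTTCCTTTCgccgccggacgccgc
Rpl35, chr2:39005112-39005141, minus strand: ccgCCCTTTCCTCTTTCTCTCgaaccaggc
Rpl14, chr9:120571507-120571536, plus strand: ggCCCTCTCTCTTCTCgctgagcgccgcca
Rpsa, chr9:120127756-120127785, plus strand: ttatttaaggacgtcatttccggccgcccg
Rps3, chr7:99483690-99483719, minus strand: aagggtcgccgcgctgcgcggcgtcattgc
Rpl3l, chr17:24727816-24727845, plus strand: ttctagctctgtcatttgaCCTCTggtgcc

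RefSeq promoters were matched for 40 of the 46 genes, 48 promoters in all. Rpl7, Rpl8, Rps14, Rps20, Rps29 and Rps4l were not matched. Such a run, read on the gene's strand, was found from the annotated first base in 8 of 48 promoters (16.7%), against 2.51% of all 32851 promoters, and from a base at most 10 bases to either side of it in 27 (56.2%), against 30.7% of all. The 26 genes with a run within 10 bases had a median change of −0.31 with 9 called lower, and the 14 without had −0.36 with 5 called. Of all genes 9.05% were called lower, and of all probe sets with a mean signal above 10000, 33.6%. The difference between genes with and without a run was not tested, and an annotated start need not be the one used in these cells. The E-box CANNTG, the letters bound by myogenic factors, which reads the same on both strands, was found in the 300 bases of 54.2% of the ribosomal protein promoters and of 72.3% of all promoters.

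Besides Rplp0 and Rplp2, 9 proteins of the large subunit were called lower. Rpl11, which forms a particle with Rpl5 and 5S RNA, had a change of −0.56 (adjusted p = 0.040), and Rpl8, near the peptidyl transferase centre, one of −0.54 (adjusted p = 0.017). Rpl7a, Rpl35 and Rpl10a, the protein of the L1 stalk, had changes of −0.48, −0.48 and −0.44, and Rpl6 one of −0.42. For Rpl11, Rpl8, Rpl7a, Rpl35, Rpl10a and Rpl6 the groups did not overlap, yet none of these passed after quantile normalization, where their changes were −0.41, −0.31, −0.26, −0.25, −0.19 and −0.21. Rpl6 had signals of 17351, 17137 and 16756 in differentiated cells, against 22110, 23622 and 23022 in proliferating cells, the tightest values of these genes. Even so, the call of Rpl6 in limma was lost whichever array was left out, with a largest adjusted p of 0.11. Rpl13a, Rpl22 and Rpl14 are the other 3 and are taken up below.

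Of the large subunit, 13 genes did not pass, with changes from −0.36 to −0.01. Rpl41, the shortest ribosomal protein and the gene with the highest signal of the list, had 29201, 31433 and 32843 in differentiated cells, against 36626, 39297 and 40857 in proliferating cells, a change of −0.32 (SE 0.13, adjusted p = 0.16). Its groups did not overlap, and after quantile normalization the change was −0.04. Rpl4 was at −0.36 (adjusted p = 0.063) and Rpl19 at −0.27 (adjusted p = 0.22). Rpl38 was at −0.08 (adjusted p = 0.82), with overlapping groups. In all, 11 of 24 large subunit genes (45.8%) were called lower, with a median of −0.36, where 9.05% of all genes were. After quantile normalization 3 of 24 (12.5%) were, where 8.78% of all genes were. Most of the 24 have mean signals above 10000, where 33.6% of all probe sets were called lower as deposited and 14.4% after quantile normalization.

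Of the 22 small subunit genes, 4 were called lower, with a median change of −0.31, where 9.05% of all genes were. These were Rpsa, Rps3, Rps25 and Rps27l. After quantile normalization 3 of 22 were called lower, where 8.78% of all genes were, so the counts of the subunits were then equal. The 18 others had changes from −0.38 to 0.52. Rps2 was next to the limit with 19574, 19957 and 21401 in differentiated cells, against 24274, 27417 and 27808 in proliferating cells, a change of −0.38 (SE 0.12, adjusted p = 0.061). Rps18 was at −0.33 (adjusted p = 0.11) and Rps4x at −0.31 (adjusted p = 0.10), both with groups apart. Rps14 and Rps20, at −0.02 and −0.12, overlapped, and after quantile normalization they stood at 0.20 and 0.14 without passing. Most of the 22 have mean signals above 10000 too, where 33.6% of all probe sets were called lower as deposited and 14.4% after quantile normalization. Of the 22 genes these shares were 18.2% and 13.6%. The difference between the subunits was not tested.

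**Figure D3:**
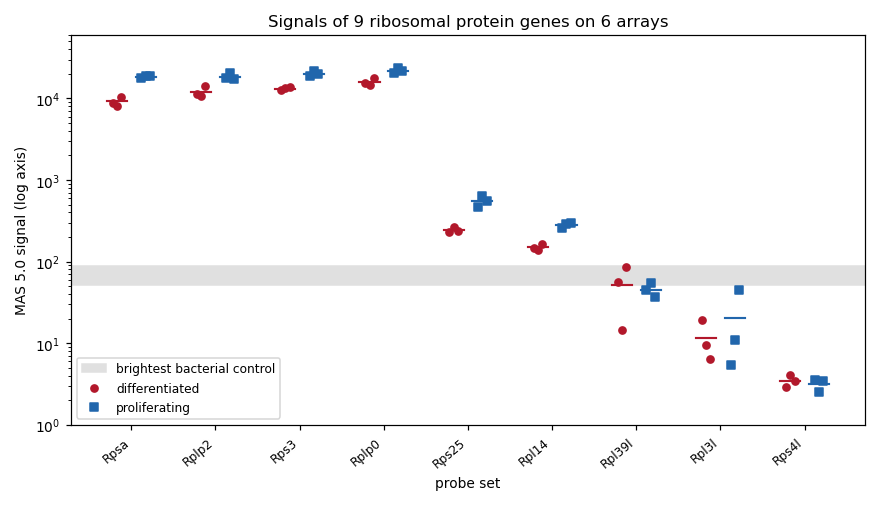
MAS 5.0 signals (y axis, log axis) of 9 ribosomal protein genes, each by its brightest own probe set, on 3 differentiated (red circles, left) and 3 proliferating arrays (blue squares, right); short lines are group means and the grey band is the brightest bacterial control over the arrays, 51.9 to 87.0. Rpsa, Rplp2, Rps3, Rplp0, Rps25 and Rpl14 have all differentiated arrays below the proliferating ones, while Rpl3l and Rps4l lie under the band on every array.

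Rps25, a small subunit protein needed for initiation at internal ribosome entry sites, had the largest change of a gene's brightest own probe set, on a dim one. Its signals were 231, 263 and 240 in differentiated cells, against 471, 644 and 552 in proliferating cells, a change of −1.13 (SE 0.15, adjusted p = 0.00022). A brighter probe set shared with Gm6988 and Gm4963 had 5780, 5593 and 7704 in differentiated cells, against 6784, 8933 and 7964 in proliferating cells, with overlapping groups and a change of −0.32 (adjusted p = 0.20). The change of Rps25 transcripts as a whole is therefore not settled by its own probe set.

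Rpl14, of the large subunit, was likewise dim on its own probe set. It had 147, 139 and 162 in differentiated cells, against 260, 289 and 300 in proliferating cells, a change of −0.86 (SE 0.19, adjusted p = 0.0078). The 5 probe sets that it shares with a pseudogene, Rpl14-ps1, were all called lower too, with changes from −0.65 to −0.35. In Rpl12 the order was the reverse. Its own dim probe set was at −0.18 (adjusted p = 0.59), and the probe sets shared with Gm11425 and with 3 predicted genes were at −0.64 (adjusted p = 0.0012) and −0.61 (adjusted p = 0.0030). Of the 11 genes with a dim own probe set, 6 had a shared one above 10000.

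Rpl22, a large subunit protein that also binds other RNAs, was the gene whose probe sets were called in opposite directions. The brightest had 8278, 8562 and 9623 in differentiated cells, against 11508, 13585 and 11904 in proliferating cells (change −0.48, SE 0.11, adjusted p = 0.011). A second had 2555, 2783 and 2583 in differentiated cells, against 3622, 4641 and 3806 in proliferating cells (change −0.60, SE 0.11, adjusted p = 0.0020). The third had 1413, 1468 and 1283 in differentiated cells, against 546, 542 and 554 in proliferating cells (change 1.32, SE 0.10, adjusted p = 1.8e-06). All arrays of a group were apart from those of the other on each of the 3 probe sets. The third kept its change after quantile normalization (1.34) and cyclic loess (1.35).

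Within an array, the third Rpl22 probe set minus the brightest one differed between the groups by 1.80 (SE 0.14), and minus the second by 1.92 (SE 0.12). Both differences had an exact permutation p of 0.10, two-sided, the smallest that 3 against 3 arrays allow. The "_s_" in the name of a probe set marks probes that may match several transcripts, and which Rpl22 transcripts each probe set reads was not tested. Across the 46 genes, 43 of 100 probe sets carry "_x_" or "_s_".

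Rpl5, the partner of Rpl11, showed a like split, on probe sets shared with the pseudogene Rpl5-ps2. The brightest had 19896, 20950 and 22940 in differentiated cells, against 21860, 24350 and 24427 in proliferating cells, a change of −0.15 (adjusted p = 0.56). The others were higher, with 963, 850 and 1188 in differentiated cells against 584, 478 and 540 in proliferating cells for 1 of them (change 0.88, SE 0.14, adjusted p = 0.00069). The other had 488, 511 and 651 in differentiated cells, against 270, 197 and 338 in proliferating cells (change 1.01, SE 0.19, adjusted p = 0.0029). Of the 110 shared probe sets, 32 were called lower and 3 higher, where 6.43% and 6.14% of all probe sets were called lower and higher, and the third higher one was shared by Rpl15 and Gm10224 (0.33, adjusted p = 0.037). After quantile normalization 14 were lower and 3 higher, where 6.36% and 6.09% of all probe sets were. Of the 58 shared ones with a mean signal above 10000, 31.0% were called lower as deposited, against 33.6% of all 229 that bright. After quantile normalization these shares were 5.17% and 14.4%.

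The probe sets of Rpl13a, a large subunit protein that in human monocytes also joins a complex silencing inflammatory mRNAs, all fell but by different amounts. The brightest had 11735, 10419 and 14020 in differentiated cells, against 16312, 18692 and 14816 in proliferating cells, a change of −0.47 (adjusted p = 0.042). The dimmest had 1300, 1240 and 1282 in differentiated cells, against 2767, 3128 and 2916 in proliferating cells, a change of −1.19 (SE 0.09, adjusted p = 1.6e-06). The others were at −0.51 (adjusted p = 0.014) and −0.91 (adjusted p = 6.2e-05). After quantile normalization the dimmest stood at −1.14 (adjusted p = 1.8e-06) and the brightest at −0.23 (adjusted p = 0.26).

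**Figure D4:**
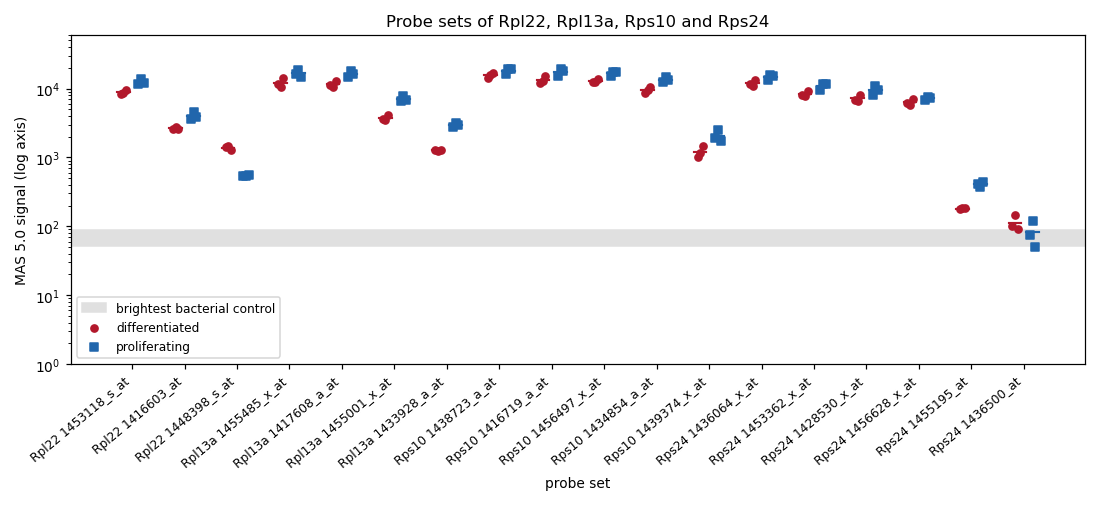
MAS 5.0 signals (y axis, log axis) of the probe sets of Rpl22, Rpl13a, Rps10 and Rps24 whose mean lies above the bacterial controls, on 3 differentiated (red circles, left) and 3 proliferating arrays (blue squares, right), ordered within a gene from bright to dim; lines are group means and the grey band is the brightest bacterial control over the arrays. The third probe set of Rpl22 is higher in differentiated cells by 1.32 on the log2 scale while the other 2 of that gene are lower, and the dimmest of Rpl13a is lower by a change of −1.19.

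Of 19 genes with at least 2 probe sets above the controls, the dimmest had a more negative change than the brightest in 9. Whether dimness orders the changes was not tested, and some of the dimmest lie near the controls, where changes are understated. The changes within a gene spanned a median of 0.20 and over 0.5 in 6 genes. Rps24 spanned most after Rpl22, by 1.55. A dim probe set had 179, 182 and 182 in differentiated cells, against 407, 371 and 445 in proliferating cells (change −1.11, SE 0.16, adjusted p = 0.00035). The dimmest counted, with a mean signal of 96.8 near the controls, was at 0.44 (SE 0.38, adjusted p = 0.57). The brightest of Rps24 was at −0.30 (adjusted p = 0.14). In Rps10 the changes of 5 probe sets ran from −0.75 (adjusted p = 0.0054) at the dimmest to −0.23 (adjusted p = 0.29) at the brightest. In Rpl35, 4 of 5 bright probe sets were called lower, between −0.49 and −0.43, and the fifth was at −0.38.

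Rpl3l was not measured above background in either state. Its probe set had 19.2, 9.5 and 6.3 in differentiated cells, against 5.4, 10.8 and 45.4 in proliferating cells, all under the brightest bacterial control of the same array. No fold change is drawn from such values, and the fitted difference of −0.28 (SE 0.42, adjusted p = 0.78) has no direction. On the same arrays embryonic myosin (Myh3) was higher by 6.09 in differentiated cells. A transcript too scarce for this probe set to register is not distinguished from an absent one.

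Rpl3, the paralog of all tissues, has no probe set to itself. A probe set shared with Gm12816 had 16790, 15779 and 17440 in differentiated cells, against 20293, 23468 and 21930 in proliferating cells, a change of −0.39 (SE 0.12, adjusted p = 0.046), which was −0.17 (adjusted p = 0.33) after quantile normalization. The within-array difference of Rpl3l and this probe set changed by 0.11 (SE 0.51, exact permutation p = 0.80), which sets a background value against a bright one. The RefSeq promoters of Rpl3l, at its 2 annotated starts, held 4 and 2 E-boxes. These numbers have no background beside them, since for all promoters only the share with an E-box, 72.3%, was taken.

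The differences within other paralog pairs were tested by exact permutation, in which 3 against 3 arrays cannot go below 0.10, so none could pass. Rps27l, a paralog of Rps27 known in human cells as a p53 target, was called lower, with 3232, 3292 and 4267 in differentiated cells against 4438, 6045 and 4991 in proliferating cells (change −0.52, SE 0.14, adjusted p = 0.023). Rps27 itself had 354, 466 and 196 in differentiated cells, against 243, 213 and 200 in proliferating cells on its own dim probe set (change 0.52, SE 0.26, adjusted p = 0.26), with differentiated replicate 3 below all proliferating arrays. The difference of their changes, Rps27l minus Rps27, was −1.04 (SE 0.51, exact permutation p = 0.20). A bright probe set of Rps27 shared with Rps27rt was at −0.40 (adjusted p = 0.051), so the dim one does not stand for all Rps27 transcripts.

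Rpl39, which lines the peptide exit tunnel, had 411, 400 and 487 in differentiated cells, against 486, 591 and 535 in proliferating cells on its own dim probe set (change −0.31, adjusted p = 0.19). A bright probe set shared with Gm32211 had overlapping groups and was at −0.04 (adjusted p = 0.89), and at 0.19 after quantile normalization. Rpl39l, the testis-enriched paralog of Rpl39, had 56.0, 14.4 and 86.1 in differentiated cells, against 45.4, 54.3 and 36.4 in proliferating cells, near the controls and without order. Rps4l, a paralog of the X-linked Rps4x, was at 2.9 to 4.1 in differentiated cells and 2.5 to 3.5 in proliferating cells, at background throughout, as was the own probe set of Rps16. Rpl39l minus the dim Rpl39 probe set differed by 0.30 (SE 0.48, exact permutation p = 0.50). Rps4l minus Rps4x differed by 0.34 (SE 0.08, exact permutation p = 0.10, the smallest possible), which reflects Rps4x alone since Rps4l was not measured.

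Ribosomal proteins and paralogs under symbols outside the rule did not pass the test. Rpl22l1, the paralog of Rpl22, was at −0.34 (adjusted p = 0.11), and Rpl22l1 minus Rpl22 differed by 0.14 (SE 0.14, exact permutation p = 0.50). Rpl7l1 was at −0.30 (adjusted p = 0.21) and Rpl7 at −0.22 (adjusted p = 0.26), a difference of −0.08 (SE 0.23, exact permutation p = 0.80). Another Rpl7l1 probe set was at 0.01 (adjusted p = 0.99) and a dimmer one at 1.03 (SE 0.48, adjusted p = 0.23), so no direction is drawn for Rpl7l1. Rps3a1 was at −0.12 (adjusted p = 0.65), and Fau, whose product is cleaved to the small subunit protein S30, at −0.21 (adjusted p = 0.54), and after quantile normalization they were at 0.11 and 0.01.

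Many factors that assemble the ribosome were lower in differentiated cells under both scalings. Of 17 such genes, 11 were called lower and none higher, with a median of −0.69, where 9.05% and 8.67% of all genes were. After quantile normalization 12 were lower with a median of −0.65, where 8.78% of all genes were. Nop56 and fibrillarin (Fbl), core proteins of the particles that methylate ribosomal RNA, had changes of −1.41 (SE 0.12, adjusted p = 3.5e-06) and −1.19 (SE 0.11, adjusted p = 1.1e-05), and dyskerin (Dkc1), of those that pseudouridylate it, −1.01 (SE 0.14, adjusted p = 0.00026). Ltv1, which acts late on the small subunit, and Rrn3, a factor of RNA polymerase I, were at 0.26 (adjusted p = 0.12) and 0.38 (adjusted p = 0.14). The difference between these factors and the ribosomal proteins was not tested.

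Of 15 measured translation factors and other TOP mRNAs, 6 were called lower and none higher, with a median of −0.28, where 9.05% and 8.67% of all genes were. After quantile normalization 4 were lower with a median of −0.17, where 8.78% of all genes were. Nucleophosmin (Npm1), a nucleolar chaperone, had 3776, 3619 and 4019 in differentiated cells, against 10263, 9676 and 7915 in proliferating cells, a change of −1.28 (SE 0.11, adjusted p = 6e-06). Nap1l1, a histone chaperone, was at −1.17, Eef1d at −0.69, the poly(A) binding protein Pabpc1 at −0.59, Hnrnpa1 at −0.51 and Eif4b at −0.40. Elongation factor Eef2 and Tpt1 were at 0.01 (adjusted p = 0.98) and −0.02 (adjusted p = 0.96).

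Among the 15 ribosomal protein genes called lower, 5 passed under quantile normalization, cyclic loess and the 75th percentile scaling alike, namely Rps25, Rpsa, Rpl14, Rplp2 and Rps3. Of these, Rps25, Rpsa, Rpl14 and Rps3 also passed with any single array left out. Rplp2 did not without differentiated replicate 1 or 2, where its largest adjusted p was 0.055. The count of genes called lower was 7 without proliferating replicate 2 and 6 without proliferating replicate 3. It was 4 without differentiated replicate 1 or 2. Each of these fits left 2 arrays in that group, and the share of all genes called in them was not counted.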

How the data were processed

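The values used are intensity values that the authors deposited, linear signals of MAS 5.0 with each array's trimmed mean scaled to 250. The methods also describe GCRMA, which needs probe-level data and was not repeated here. The genome build of the probe sets is not given in the sources used here. The 64 Affymetrix control probe sets among the 45101 were not tested. Probe sets were named by the platform annotation, in which 34945 of those tested have 1 symbol, 932 several and 9160 none, and all 46 genes matched a current RefSeq gene. A gene stands for its brightest own probe set.

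The log2(signal + 15) values of 6 arrays, 3 per group, entered a linear model in limma (version 3.58.1, under R 4.3.3) by lmFit and eBayes with trend, with Benjamini-Hochberg adjustment over 45037 probe sets, and calls were made at an adjusted p under 0.05. All adjusted p-values are from this fit or its alternatives. The script was tested on simulated data. Differences between probe sets were tested by exact permutation over arrays. Arrays of the same group correlated at 0.937 to 0.942 (Pearson, over probe sets, which are not independent), and array medians were 72.3 to 81.4 in differentiated and 68.0 to 73.0 in proliferating cells. With 3 arrays per group, precision is limited, and the spread is one between RNA pools.

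Alternatives were quantile, cyclic loess and 75th percentile scaling, pseudocounts of 1 and of 49.6, the 40th percentile of all values, a filter on dim probe sets, eBayes without trend, a Bayesian regularized test after the methods, the replicate number as a block, other probe sets per gene, and each array left out. Named genes are the called members, paralog pairs, the stalk and Rpsa, the 3 brightest members and any gene called in opposite directions, and other genes are named as examples chosen after their values were seen. The members, lists and rules were chosen with earlier results of these data known. The background limit set by the bacterial controls was likewise chosen after the values were seen. Protein sequences were not used here. Python 3.11.15 with pandas 2.3.3 made the tables.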

Additional observations from a re-analysis of the deposited data

How the results depend on the processing

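The direction of the ribosomal protein median held under the alternatives run, and the number of genes called lower, 15 as reported, did not. It was 6 after quantile normalization and 5 after cyclic loess, where the median was −0.13 and −0.11. It was 29 with dim probe sets left out, where fewer probe sets are adjusted over and the errors also shrank (SE of Rpl41 0.08, against 0.13 as reported), 26 with the regularized test and 3 with eBayes without trend. With 1 array left out it ran from 4 to 15, and the number higher from 0 to 1, the 1 being Rps27 without differentiated replicate 3. For settings other than the scalings, the share of all genes called was not counted, so these counts have no background beside them. The cause was not tested.

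The change of the Rpl3 probe set, −0.39, missed the threshold at −0.17 after quantile normalization, at −0.12 after cyclic loess, and at −0.39 with the larger pseudocount, without trend and with the replicate block, and it missed it whichever array was left out, at −0.45 to −0.34 with adjusted p from 0.059 to 0.21. Rpl3l, at background, ran from −0.60 to 0.19 with 1 array left out and turned to 0.19 without proliferating replicate 3. Rpl3l minus Rpl3, 0.11 as reported, was −0.18 after quantile normalization, −0.21 after cyclic loess, −0.00057 with a pseudocount of 1, and −0.15 to 0.58 with 1 array left out. With dim probe sets left out Rpl3l had no value, and its difference from Rpl3 was not run under the other tests, the block and the choices of probe set.

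Over the 24 named genes other than Rpl3l, 301 values under alternatives stayed on the same side of the threshold in the same direction, 84 lost the call, 11 gained one and 9 turned sign. Averaging all probe sets of a gene gave 0.08 for Rpl22 and 0.0032 for Rps3, since it includes the Rpl22 probe set that was higher and the Rps3 probe sets that were dim or at background. Rpl7 turned to 0.031 after quantile normalization and 0.019 after cyclic loess, Rps4l, at background, to −0.0099 after quantile normalization, and Rpl41 to 0.35 on its brightest probe set without "_x_" or "_s_". Rpl39l, near background, turned to 0.037 with the larger pseudocount and ran from −0.39 to 0.50 with 1 array left out.

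Deviations of arrays with the same replicate number had small positive correlations, between 0.000663 and 0.0125 across probe sets, and 4 of 6 arrays correlated best with their own number. Whether the numbers pair the arrays was not tested. With the replicate block 12 genes were lower, and the share of all genes under it was not counted.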

Other observations

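Some further ribosomal protein probe sets belong to no comparison above, being shared or not the brightest of their gene. A probe set of Rps12 and its pseudogenes was lower in differentiated cells by a change of −0.81 (adjusted p = 0.0020 in limma). A dim one of Rpl17 and its pseudogenes, with a mean signal of 480, was lower by −0.77 (adjusted p = 0.0046). The brightest shared probe sets of Rps12 and Rpl17 were at −0.30 (adjusted p = 0.12) and −0.39 (adjusted p = 0.091). A probe set of Rpl3, Gm12816 and Gm5879 was at −1.02 (adjusted p = 0.066). In Rps15 the less bright of 2 probe sets was lower, at −0.64 (adjusted p = 0.0082), and the brighter one was at −0.37 (adjusted p = 0.092). Rps16, whose own probe set was at background, was at −0.48 (adjusted p = 0.028) and −0.24 (adjusted p = 0.30) on the shared probe sets, and Rps6, at 0.14 (adjusted p = 0.71) on its own dim probe set, was at −0.32 (adjusted p = 0.11) on the brightest shared one.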
